A study of Homo sapiens with 6 samples.

Results

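The collagen genes described here are 10 genes, read by 30 probe sets out of 19065 that carry a single gene symbol on the array. Members were taken by symbol. They are the fibril-forming chains COL1A1, COL1A2, COL3A1, COL5A1 and COL5A2, the basement membrane chains COL4A1 and COL4A2, and the beaded filament chains COL6A1, COL6A2 and COL6A3. The gene set was proposed with the difference between the lines already seen, COL3A1 in particular. The collagen differences are therefore a description without a test. Expression was measured in 3 samples of SUM44, an invasive lobular breast carcinoma line labelled positive for estrogen and progesterone receptors, at passages 74, 75 and 76 (replicates 1, 2 and 3). These were compared with 3 samples of LCCTam, its tamoxifen-resistant variant, at passages 8, 9 and 10 (replicates 1, 2 and 3). LCCTam was kept in 500 nM 4-hydroxytamoxifen and SUM44 was not, so the line and the drug cannot be told apart. Both lines grew in SFIH medium (Ham's F12) as sub-confluent flasks, and the labels do not say whether LCCTam is a clone. Nothing in the labels says that passages were independent cultures, and the p-values then speak of the spread among these flasks alone, which may be technical.

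Collagens are secreted proteins whose chains wind into a rope-like helix. Types I, III and V assemble into fibrils of the interstitial matrix, type IV forms the sheet of basement membranes, and type VI forms fine beaded filaments around cells. In breast tissue the fibrillar chains come mainly from stromal fibroblasts. Epithelial cells and the cells around vessels contribute to basement membrane.

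Values are log2 RMA expression, and differences are LCCTam minus SUM44. The array median was between 5.92 and 5.97 on all 6 arrays. LCCTam replicate 3 stood apart, with a 3' minus 5' difference of 1.92 in its actin control probe sets against 0.90 to 1.15 on the others, and a 75th percentile of 7.50 against 7.68 to 7.78. The 11 epithelial and luminal markers, among them keratins, EPCAM and CDH1, lay at percentiles 75.2 to 99.7 in SUM44 and 67.6 to 99.6 in LCCTam, with MUC1 the lowest in LCCTam. In limma 0 of them rose and 1 fell, where 7.76% of all genes passed. ESR1 fell, with a difference of -1.65 (adjusted p = 0.00155), and 4 of its other probe sets passed. MUC1 was not called at -1.38 (adjusted p = 0.0517), but 1 of its other probe sets passed, and these differed by -1.40 to -0.33. The difference was negative in 9 of the 11 markers (median -0.234). An unadjusted p under 0.05 was found in 3 of them, and in 23.5% of all genes. The median difference of all 19065 probe sets was 0.0134, and 95% of them lay between -0.88 and 0.50. Percentiles and words such as dim and brightest place probe sets on the scale of the arrays and do not compare amounts of RNA between genes. The values carry no detection call.

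COL3A1 had the largest differences of the 10 collagen genes. It encodes the type III chain, which forms fibrils together with type I collagen in distensible tissues. Probe set 215076_s_at read 8.23, 8.74 and 8.96 in SUM44 replicates 1 to 3 and 3.98, 4.32 and 4.36 in LCCTam replicates 1 to 3. The lowest SUM44 array lay far above the highest LCCTam array. The difference was -4.42 (SE 0.20, n = 3 each), or 21.5-fold lower in LCCTam, and no other of the 19065 probe sets had a more negative one. Probe set 201852_x_at read 7.11, 7.85 and 7.98 in SUM44 and 4.37, 3.98 and 4.59 in LCCTam, a difference of -3.34 (SE 0.25), or 10.1-fold lower. Probe set 211161_s_at read 4.83, 5.57 and 6.11 in SUM44 and 3.73, 3.49 and 3.42 in LCCTam, a difference of -1.96 (SE 0.30), or 3.88-fold lower. The lines did not overlap for any of these 3 probe sets, whose sizes of difference were unequal.

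The fourth COL3A1 probe set, 215077_at, did not show this difference. It read 4.62, 4.51 and 4.52 in SUM44 and 4.59, 4.54 and 4.58 in LCCTam, a difference of 0.02 (SE 0.08). The lines overlapped completely there, at percentile 20.8 of all probe sets in both. The platform annotation gives 215077_at and 215076_s_at the same GenBank entry as their source, although their differences were the smallest and the largest of the gene. In LCCTam the other COL3A1 probe sets were dim, at percentiles 13.1 (215076_s_at), 15.0 (201852_x_at) and 1.21 (211161_s_at), against 84.3, 73.7 and 41.0 in SUM44. No value on this scale marks absent RNA, so the readings do not tell whether LCCTam still made COL3A1 RNA, and the folds may be compressed. All 3 probe sets with a difference carry the suffixes _s_at or _x_at, which mark probes that can match more than 1 transcript. Leaving out LCCTam replicate 3 gave differences of -4.49, -3.47 and -1.89 for 215076_s_at, 201852_x_at and 211161_s_at.

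**Figure D1:**
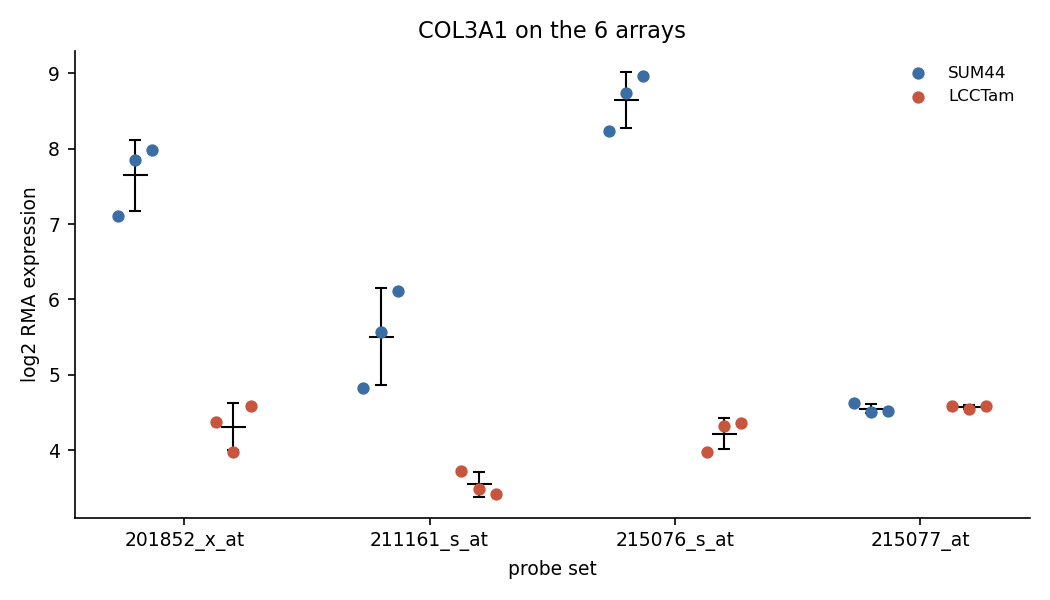
Log2 RMA expression of the 4 COL3A1 probe sets on each array, with SUM44 in blue and LCCTam in red, replicates 1 to 3 from left to right. Black marks are the mean and SD of 3 arrays. The lines do not overlap in 3 probe sets and overlap in 215077_at, which reads between 4.51 and 4.62 everywhere.

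COL3A1 also varied within SUM44, in the same probe sets that stood out by their difference between the lines. In the 3 probe sets with a difference, SUM44 replicate 1 was the lowest and replicate 3 the highest. The range over the SUM44 arrays was 0.73 in 215076_s_at, 0.87 in 201852_x_at and 1.28 in 211161_s_at. Their SDs in SUM44 were 0.37, 0.47 and 0.64, where the median SD of all probe sets in SUM44 was 0.10. These SDs stood at percentiles 95.3, 97.3 and 99.0 of all probe sets, bright and dim together. In LCCTam the SDs were 0.21, 0.31 and 0.16, against a median of 0.15. The spread in SUM44 was smaller than the difference between the lines in each of the 3 probe sets. In 215077_at the SD in SUM44 was 0.06, at percentile 24.9.

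Type I collagen, the main fibrillar protein of connective tissue, had no difference of the size of COL3A1's. COL1A1, its alpha-1 chain, was read by 4 probe sets with differences from 0.00 to 0.18. The most different, 202310_s_at, read 4.85, 4.73 and 4.64 in SUM44 and 5.19, 4.89 and 4.68 in LCCTam (difference 0.18, SE 0.14), and the lines overlapped. The brightest of the 4, 217430_x_at, read 6.89, 6.71 and 6.87 in SUM44 and 6.90, 7.01 and 6.57 in LCCTam (difference 0.00, SE 0.13). COL1A2, the alpha-2 chain of the same protein, had differences of 0.03 and 0.07 (SE 0.08 and 0.09). Its probe set 202403_s_at stayed between 5.62 and 5.78 over the 6 arrays and 202404_s_at between 3.80 and 4.02. In SUM44, 202311_s_at of COL1A1 and 202404_s_at of COL1A2 were dim, at percentiles 1.15 and 5.74, where a fall could hardly show. The other type I probe sets lay at percentiles 25.3 to 63.3 in SUM44.

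Type V collagen, which joins type I in fibrils and limits their width, also stayed close to equal in the lines. COL5A1 had 3 probe sets with differences of -0.04, -0.04 and -0.11. In 212489_at, the last of these, SUM44 read 4.50, 4.42 and 4.37 and LCCTam 4.24, 4.35 and 4.37, so the lines did not overlap but met near 4.37. The 2 COL5A2 probe sets differed in opposite directions, by -0.12 for 221729_at (SE 0.07) and 0.15 for 221730_at (SE 0.09). The former read 3.96, 3.92 and 4.00 in SUM44 and 3.84, 3.82 and 3.87 in LCCTam, and the latter 3.75, 3.90 and 3.75 against 3.95, 3.88 and 4.02. The lines did not overlap in the former and overlapped in the latter. Both were dim, at percentiles 4.65 to 7.84, where a fall could hardly show. COL5A2 is the neighbour of COL3A1 on chromosome 2, with no annotated gene between them in the RefSeq table of GRCh38.p14. Of these adjacent genes COL3A1 was lower by up to 4.42 on the log2 scale and COL5A2 moved by at most 0.15. At its low level COL5A2 could not show a fall of that size, so nothing is read from the contrast.

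COL4A1 and COL4A2 encode the chains of the most widespread type IV collagen, and they lie head to head on chromosome 13. The stretch between their start sites serves both genes and is shown because a shared promoter is what joins this pair. It is chr13:110307158-110307283 of GRCh38.p14, plus strand, from the RefSeq promoter table, which held 5 of the 10 genes (COL4A1, COL4A2, COL5A1, COL6A2 and COL6A3). Capitals mark the motif CCAAT, searched on both strands.

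COL4A1 and COL4A2 start sites: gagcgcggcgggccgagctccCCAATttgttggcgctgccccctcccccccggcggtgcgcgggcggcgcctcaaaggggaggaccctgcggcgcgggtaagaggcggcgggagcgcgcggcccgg

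The stretch has 126 bases and 1 CCAAT, on the plus strand. Of 27305 promoters in the table, 21.9% hold CCAAT on either strand in the 126 bases before the start. A match of letters is a description and shows no binding. The array values of the pair were near equal in the lines. COL4A1 probe set 211981_at read 5.06, 5.01 and 4.82 in SUM44 and 5.10, 4.93 and 5.27 in LCCTam (difference 0.14, SE 0.12), and 211980_at differed by -0.02 (SE 0.10). COL4A2 probe set 211964_at read 5.11, 5.13 and 4.90 in SUM44 and 4.92, 4.76 and 4.94 in LCCTam (difference -0.17, SE 0.10), and 211966_at differed by -0.04 (SE 0.08). The lines overlapped in all 4 probe sets, which lay at percentiles 14.2 to 32.8.

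Type VI collagen showed small positive differences in COL6A1, and those of several probe sets leaned on 1 array. COL6A1, the alpha-1 chain, was read by 8 probe sets, all with a positive difference, from 0.08 to 0.35 with a median of 0.211. LCCTam replicate 3 was the highest of the 6 arrays in 6 of the 8, where it was the highest in 22.5% of all probe sets. In 213428_s_at SUM44 read 5.13, 5.33 and 5.20 and LCCTam 5.27, 5.14 and 6.07. In 212940_at SUM44 read 5.45, 5.36 and 5.31 and LCCTam 5.56, 5.46 and 6.16, and in 212091_s_at 4.87, 4.80 and 4.82 against 4.78, 4.82 and 5.51. Without that array the differences of these 3 were -0.02, 0.13 and -0.03, and the median of the 8 was 0.0884. Other COL6A1 probe sets depended less on it. In 212938_at SUM44 read 4.99, 4.66 and 4.83 and LCCTam 5.01, 5.02 and 5.16, with no overlap and a difference of 0.24, or 0.19 without that array. In 212937_s_at the lines overlapped, and the difference was 0.16, or 0.17 without it. The lines also did not overlap in 212940_at. The part of that array's actin and 75th percentile values in these differences was not tested. Of the 8 probe sets 3 cite 1 GenBank entry, so they are not independent readings.

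The other chains of type VI differed by 0.17 or less. COL6A2, the alpha-2 chain, had differences of 0.17 for 209156_s_at (SE 0.10) and 0.03 for 213290_at (SE 0.09). In 209156_s_at SUM44 read 4.36, 4.32 and 4.24 and LCCTam 4.36, 4.40 and 4.66, without overlap by a small margin and again highest on LCCTam replicate 3, and the difference was 0.07 without it. COL6A3, the large alpha-3 chain, was read by 1 probe set at 4.70, 4.58 and 4.71 in SUM44 and 4.60, 4.70 and 4.60 in LCCTam (difference -0.02, SE 0.08).

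**Figure D2:**
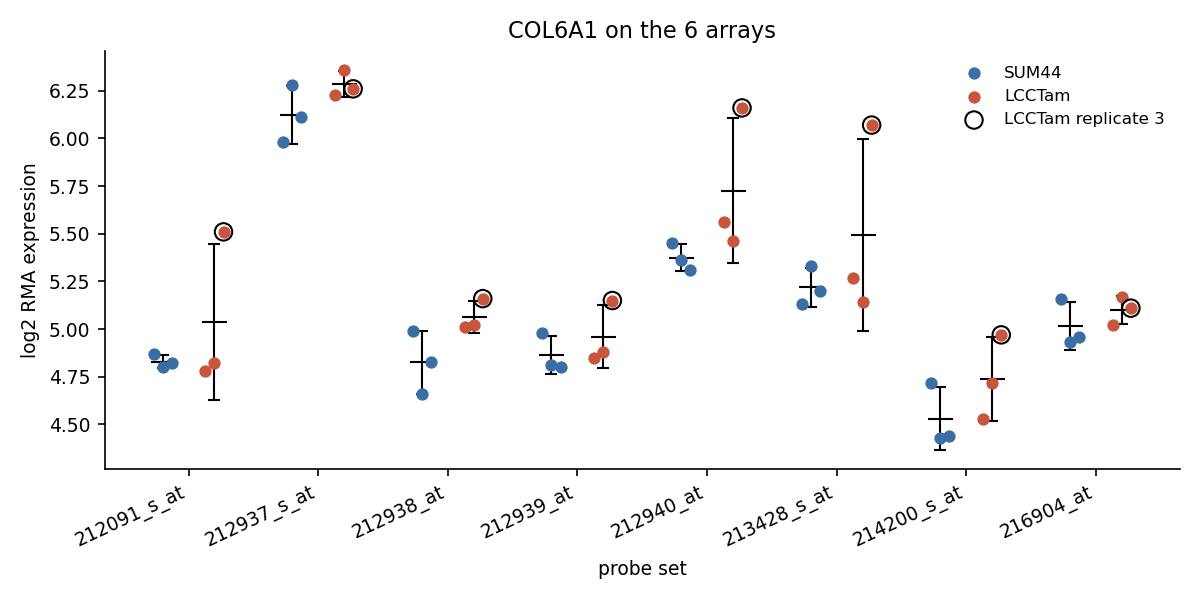
Log2 RMA expression of the 8 COL6A1 probe sets on each array, with SUM44 in blue and LCCTam in red, black marks for the mean and SD of 3 arrays and rings for LCCTam replicate 3. The ringed array is the highest of the 6 in 6 of the 8 probe sets, most clearly in 212091_s_at, 212940_at and 213428_s_at.

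Across the 10 genes, 3 of 30 probe sets passed an adjusted p of 0.05 in limma fitted to all 19065 probe sets, each of them lower and of COL3A1. Of all probe sets 7.37% passed, 5.65% lower and 1.72% higher. The genes were chosen on this contrast, so nothing is read from their count. The lines did not overlap in 8 of the 30, 3 higher and 5 lower, against 29.6% of all probe sets, 13.0% higher and 16.6% lower. By the submitters' own criteria (2-fold, unadjusted p under 0.05, at least log2 of 10 in both lines) 3 collagen probe sets and 2.23% of all would be selected. The median difference of the 30 was 0.0324. The 26 probe sets of the other 9 genes had differences between -0.17 and 0.35 (SE 0.07 to 0.23) and levels between 3.49 and 7.01. An absolute difference under 0.25 was found in 24 of these 26, and in 69.1% of all probe sets, bright and dim together. The 26 were dimmer than most, with medians of 4.80 to 4.98 on the arrays against 5.92 to 5.97 for all probe sets. The part of their low level in the small differences was not tested.

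**Figure D3:**
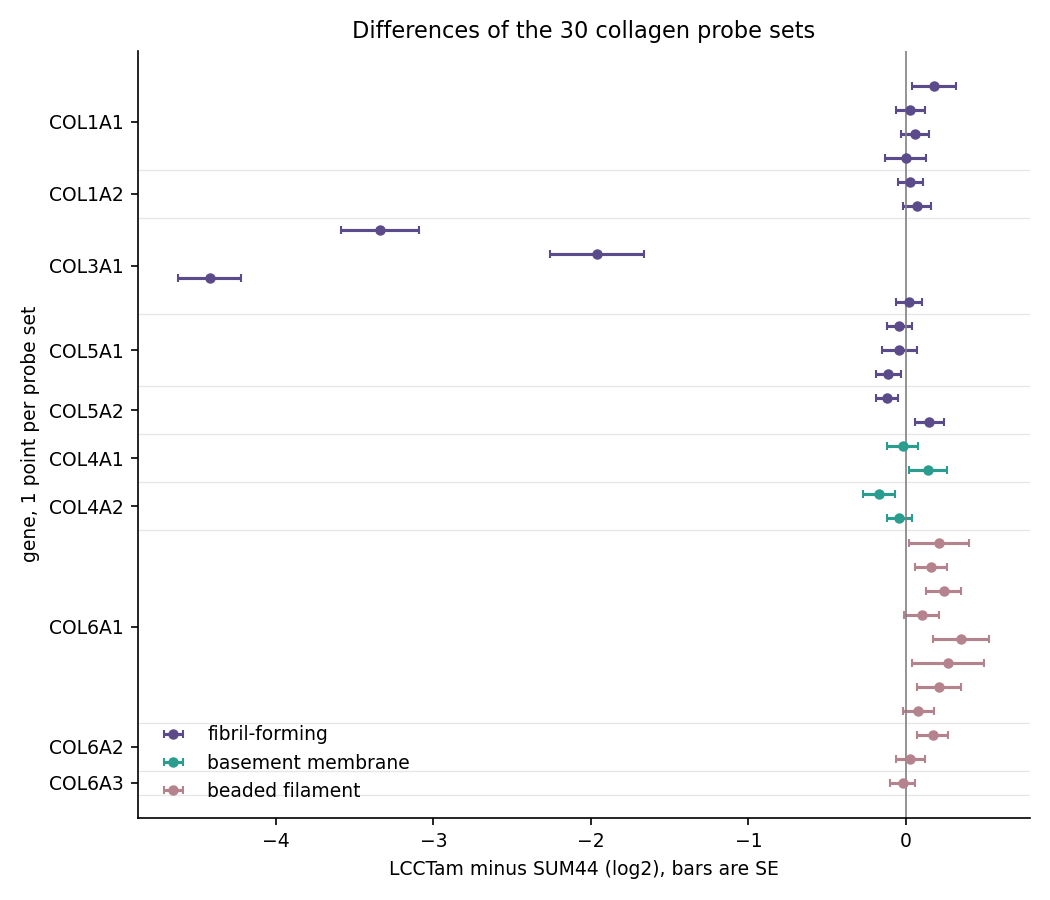
LCCTam minus SUM44 on the log2 scale for each of the 30 collagen probe sets, grouped by gene and coloured by the kind of collagen, with bars of 1 SE. The 3 lowest COL3A1 points lie between -4.42 and -1.96, and all other points, the fourth COL3A1 probe set included, lie between -0.17 and 0.35.

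Few genes that make, bind or break down collagen passed the test. They were 146 genes in 7 lists chosen by function, of which 125 were measured, each through its brightest probe set. In limma 1 rose and 4 fell, which is 4.0%, where 7.76% of all 11963 genes passed, 2.03% higher and 5.73% lower. Their median difference was 0.0636, against 0.0174 for all genes. The count was 1 without SUM44 replicate 2 and 1 without LCCTam replicate 2, where 2.16% and 3.52% of all genes passed, and 9 without LCCTam replicate 3, where 12.7% did. At an unadjusted p under 0.05, which is given for each list, 23.5% of all genes passed.

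The other collagen chains numbered 22 measured, of which 0 passed and 2 had an unadjusted limma p under 0.05 (median 0.0985). The most different was COL16A1, a chain that associates with fibrils, with a mean of 5.99 ± 0.18 over the SUM44 arrays and 5.38 ± 0.28 over the LCCTam arrays (SD, n = 3 each). The difference was -0.61 (limma adjusted p = 0.0722). Without LCCTam replicate 3, 1 of the 22 was higher, COL4A6, a basement membrane chain (adjusted p = 0.0176).

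Of 21 measured enzymes and chaperones of procollagen, 0 rose and 1 fell, and 5 had an unadjusted p under 0.05 (median 0.105). SERPINH1, which encodes the collagen chaperone HSP47, read 10.38, 10.47 and 10.37 in SUM44 and 10.13, 9.76 and 9.75 in LCCTam. It fell by 0.52 on the log2 scale (SE 0.12, limma adjusted p = 0.049), close to the threshold. That call was lost in 9 of 13 alternatives, with adjusted p from 0.0251 to 0.187 over all 13, and among the losses were those without SUM44 replicate 1 (0.105), SUM44 replicate 2 (0.187), SUM44 replicate 3 (0.108), LCCTam replicate 2 (0.128) and LCCTam replicate 3 (0.0661). P4HB, the shared subunit of prolyl 4-hydroxylase, was not called at 0.58 (adjusted p = 0.0563), and its other probe set, also not called, differed by 0.55. P4HB passed in 6 of 14 alternatives, with limma adjusted p from 0.00108 to 0.204 over all 14. Without LCCTam replicate 3, 3 genes of this list were higher and 0 lower, P4HB (adjusted p = 0.0335) and P3H1 and CRTAP (0.0485 and 0.0277), which act together in prolyl 3-hydroxylation.

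Propeptide removal and cross-linking genes had 0 of 14 passing in limma and 1 with an unadjusted p under 0.05 (median 0.0749). LOXL2, a lysyl oxidase that cross-links collagen, had the largest difference at 0.43 (adjusted p = 0.0754), while its other probe sets differed by -0.20 to 0.23. Collagen receptors had 0 of 11 passing in limma and 3 with an unadjusted p under 0.05 (median 0.0905). ITGA2, the alpha-2 integrin chain that binds collagen, read 6.84, 6.81 and 7.05 in SUM44 and 5.93, 6.49 and 6.51 in LCCTam (difference -0.59, adjusted p = 0.0908). Its partner ITGB1 was at -0.51 (adjusted p = 0.11, and 0.0109 without LCCTam replicate 3), while its other 4 probe sets differed by -0.11 to 0.12.

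Collagen-binding matrix proteins had 0 of 23 passing in limma and 4 with an unadjusted p under 0.05 (median -0.023). HSPG2 was not called through its brightest probe set (difference 0.16), but its other probe set passed at 0.36. FN1, which encodes fibronectin, read 7.02, 7.88 and 8.42 in SUM44 and 6.97, 6.78 and 6.27 in LCCTam (difference -1.10, adjusted p = 0.118). Its SUM44 arrays stood in the same order as those of COL3A1, with replicate 1 lowest and replicate 3 highest. In this list SPARC had the same order and FBLN1 the reverse. The share of all probe sets with this order was not counted, so nothing is read from it. Without SUM44 replicate 1 the FN1 difference was -1.47 (adjusted p = 0.0281, in a range of 0.0154 to 0.646 over 14 alternatives). Its other 5 probe sets differed by -1.14 to 0.10.

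Among collagen-degrading proteases and their inhibitors, 0 of 15 rose and 1 fell, the only one with an unadjusted p under 0.05 (median -0.0445). TIMP1, an inhibitor of matrix metalloproteases, read 6.50, 6.24 and 6.36 in SUM44 and 4.98, 4.81 and 5.20 in LCCTam. It fell by 1.37 on the log2 scale (SE 0.12, limma adjusted p = 0.00227), and the lines did not overlap. MMP16 was not called through its brightest probe set (difference -0.21), but 1 of its other probe sets passed. These others differed by -1.19 to -0.27. Without the _x_at and _s_at probe sets, 2 genes of this list passed.

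In TGF-beta signalling, a pathway known to raise fibrillar collagen transcription in fibroblasts, 1 of 19 genes rose and 2 fell, and 8 had an unadjusted p under 0.05 (median 0.0401). TGFBR3, the coreceptor betaglycan, rose from 5.76 ± 0.41 to 7.13 ± 0.32 (SD, n = 3 each; difference 1.37, limma adjusted p = 0.0194). LTBP3, which holds latent TGF-beta in the matrix, fell by 1.05 on the log2 scale (adjusted p = 0.0258), and SMAD3, a transcription factor activated by TGF-beta receptors, fell by 0.91 (adjusted p = 0.0251), while its other 3 probe sets differed by -0.49 to -0.11 and none of them passed. Each call was lost without some arrays. TGFBR3 had an adjusted p of 0.0869 without SUM44 replicate 2 and 0.0657 without LCCTam replicate 2. LTBP3 had 0.0582, 0.114 and 0.0747 without SUM44 replicates 1, 2 and 3 and 0.0655 without LCCTam replicate 2. SMAD3 had 0.0602 and 0.0563 without SUM44 replicates 2 and 3 and 0.059 and 0.0783 without LCCTam replicates 1 and 2. Over all alternatives the adjusted p ranged from 0.00179 to 0.0869 for TGFBR3, from 0.00155 to 0.114 for LTBP3 and from 0.00639 to 0.0783 for SMAD3.

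**Figure D4:**
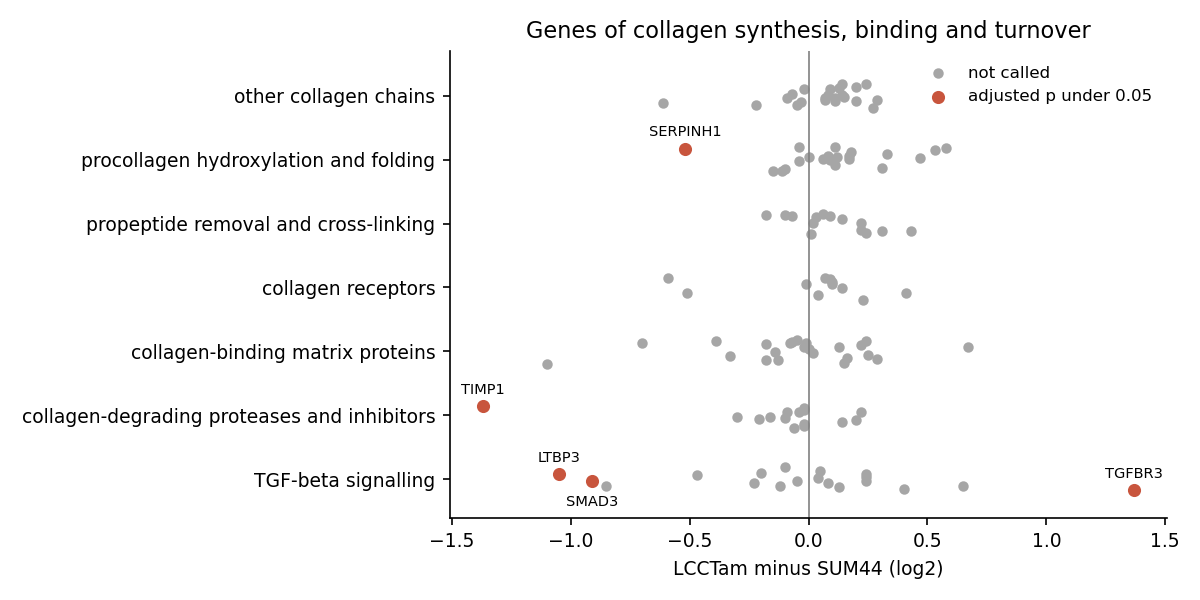
LCCTam minus SUM44 on the log2 scale for the 125 measured genes of the 7 lists, 1 point per gene, with red points for genes that passed an adjusted p of 0.05 in limma. The 5 red points are SERPINH1, TIMP1, LTBP3, SMAD3 and TGFBR3, and only TGFBR3 lies to the right of 0.

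None of the markers of fibroblasts and of other non-epithelial cells passed the test, in lists too short for this to tell much. Of 12 fibroblast markers 0 passed in limma, where 7.76% of all genes did. An unadjusted p under 0.05 was found in 1 of them, and in 23.5% of all genes. The mean level of these markers was 5.05 to 5.34 on the SUM44 arrays and 5.12 to 5.25 on the LCCTam arrays. In SUM44 they spanned percentiles 2.57 to 68.4, with LUM, which encodes the fibril-binding proteoglycan lumican, at the low end, POSTN at 6.51, TCF21 at 9.59 and FAP at 18.4, and with DCN at 47.1, THY1 at 53.1, PDGFRA at 56.3, FBLN1 at 60.3 and S100A4 at 68.4. In LCCTam they spanned 0.80 to 67.2. The part of other cell types in the COL3A1 values was not tested. FBLN1 was the most different of the fibroblast markers, at 7.11, 6.68 and 6.09 in SUM44 and 5.94, 5.96 and 5.89 in LCCTam (adjusted p = 0.135). It passed in 2 of 14 alternatives, with limma adjusted p from 0.0128 to 0.34 over all 14. Its other probe sets differed by -0.26 to 0.27. Markers of smooth muscle and pericytes, endothelium and leukocytes had 0 of 7, 0 of 7 and 0 of 5 passing, with 0, 1 and 0 at an unadjusted p under 0.05.

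The genes most like COL3A1 in pattern were sought over the 6 arrays. Each probe set was centred on its mean and compared with 215076_s_at by the root mean square distance on the log2 scale. The nearest were IFI27, an interferon-induced gene, at a distance of 0.36, and GJA1, the gap junction gene for connexin 43, at 0.44. ALB, the albumin gene, followed at 0.54, AZGP1, a secreted glycoprotein gene, at 0.65 and NPY1R, a neuropeptide Y receptor gene, at 0.78. Of these, IFI27, GJA1 and ALB had their lowest SUM44 value on replicate 1, as COL3A1 did, and ALB read 6.88 there against 8.72 and 7.93 on replicates 2 and 3. AZGP1 and NPY1R had theirs on replicates 2 and 3. These values entered the distance by which the genes were found, so a shared low array is not a separate observation. Of the other COL3A1 probe sets, 201852_x_at lay at 0.59, 211161_s_at at 1.26 and 215077_at at 2.24. The probe sets of the other 9 collagen genes all lay between 2.15 and 2.41, a range that holds 215077_at. A probe set that barely changed over the 6 arrays lies near this distance whatever its gene, so the range describes no shared pattern.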

How the data were processed

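The deposited values are log2 expression from RMA run by the authors, per the submitters' processing notes. Which RMA version and chip definition served is not given in the sources used here. Array 75th percentiles differ, so the distributions are not identical. Of 22283 probe sets, 68 controls, 1043 with several symbols and those without a symbol were left out, which kept 19065. Symbols were updated through Entrez identifiers for 19053 of them. No intensity filter was used. The model was limma's (version 3.58.1, R 4.3.3; lmFit and eBayes), with Benjamini-Hochberg adjustment over all 19065 probe sets and a threshold of 0.05. The brightest probe set stood for each gene of a list. Simulated data with the comparison's 19065 probe sets gave back 22% of probe sets shifted by 0.5 (log2), 74% at 1 and 100% at 2 and at 4, with 10 false among 158 calls. The simulated noise was independent and equal on every array, whereas LCCTam replicate 3 had an array weight of 0.198. The data gave 1405 calls, so these rates are not the power of the real comparison. The number of arrays limits the precision.

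The collagen genes and the lists were chosen with earlier results of these data known. Named genes were all 10 collagen genes, up to 4 passing genes of largest absolute difference per list or otherwise the most different, and the 5 probe sets nearest to COL3A1. COL4A6, P4HB, P3H1, CRTAP, ITGB1, FBLN1, MMP16, HSPG2 and SPARC were named after their values were seen. Alternatives changed normalization, filter, weights, variance model, probe sets, threshold and samples.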

Additional observations from a re-analysis of the deposited data

How the results depend on the processing

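The differences of COL3A1 kept their direction in every alternative that held them, at -4.67 to -4.27 for 215076_s_at, -3.60 to -3.17 for 201852_x_at and -2.29 to -1.65 for 211161_s_at. The count of 3 collagen probe sets passing became 5 with limma array weights, which added COL1A1 202310_s_at at 0.41 and COL6A1 212938_at at 0.26, and 1 with 1 probe set per gene. Without the _x_at and _s_at probe sets it was 0 in limma, with 0 at an unadjusted p under 0.05, since 15 collagen probe sets of 8 genes remained and the 3 of COL3A1 were among those removed. Leaving out single arrays gave 2 to 3. The probe set lost without SUM44 replicate 2, LCCTam replicate 1 or LCCTam replicate 2 was 211161_s_at. The median over the collagen probe sets was 0.0171 to 0.0812 without single arrays.

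Of all probe sets 1405 passed, and 6207 did so with array weights, 687 without the _x_at and _s_at probe sets and 425 with the submitters' selection (2-fold, unadjusted p under 0.05, at least log2 of 10). Leaving out single arrays gave 382 to 2238. The 5 passing genes of the 7 lists became 34 with array weights and 1 to 9 without single arrays. The array weight of LCCTam replicate 3 was 0.198 against 5.4 for LCCTam replicate 1. The ITGB1 difference of -0.51 turned to 0.12 once probe sets with those suffixes were left out, and that of CRTAP, 0.11, ranged from -0.12 without LCCTam replicate 2 to 0.46 without LCCTam replicate 3. The cause of these changes was not tested. No paired analysis was possible because the lines share no passage number.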
